A study of Mus musculus with 15 samples.

Results

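Macrophages are phagocytes that settle in the kidney before birth and are joined there by blood monocytes. They depend on the growth factor receptor encoded by Csf1r, read antibody-coated particles through Fc receptors, digest what they take up in lysosomes, and make superoxide with a membrane NADPH oxidase. Described here are 32 genes that mark macrophages and other myeloid cells, taken by gene name from a fixed list out of 26823 named genes present in both deposited tables. They fall into 5 roles. Of these genes, 13 are identity and surface receptor genes, 4 encode Fc receptors or signalling adaptors, and 4 the phagocyte oxidase. Lysosome and granule genes number 6, and pan-leukocyte or transcription factor genes 5.

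RNA of whole kidney was sequenced from 15 mice at 4 months of age, 5 per group. The WT group and the Hyp group were given PBS, and the cFGF23-Hyp group received AAV-cFGF23, an adeno-associated viral vector for the carboxy-terminal part of FGF23, as 1 intravenous dose of 1e12 vector genomes (age 4 weeks, with tissue taken 3 months afterwards). Both Hyp groups carry the genotype label Phex_KO and the design names their strain Hyp-Duk, in which loss of Phex raises the bone hormone FGF23. No empty vector group was given, so vector and cFGF23 cannot be told apart, and the sources used here do not state the promoter of the vector, the sex of the mice or their litters. Each library comes from 1 mouse.

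Of the 15 libraries, 3 stood apart. The title of WT_5 places it in WT, but its genotype is labelled Phex_KO. It was kept in WT, and results without it are also given. Ces1g, a carboxylesterase gene that is no member but differs widely between the groups, was at 1.07 to 2.01 CPM (counts per 1e6 counts) in WT_1 to WT_4, 9.59 in WT_5, 114 to 132 in Hyp, 13.3 to 22.9 in cFGF23-Hyp_1 to cFGF23-Hyp_4, and 2.01 in cFGF23-Hyp_5. By this gene cFGF23-Hyp_5 lay in the range of WT_1 to WT_4 and apart from its own group, so it may not be a treated Hyp mouse. Ces1g is 1 gene, and it was also far below Hyp in cFGF23-Hyp_1 to cFGF23-Hyp_4. On the second principal component over all genes tested, cFGF23-Hyp_5 lay at 35.46 and the other treated libraries at -13.93 to -7.28. There WT_1 to WT_4 lay at 5.02 to 29.03, WT_5 at -3.66 and Hyp at -28.79 to -2.82. Whether WT_5 and cFGF23-Hyp_5 were exchanged or mislabelled was not tested, and for these doubts they are left out together below. cFGF23-Hyp_3 lay at 76.08 on the first principal component, against -17.10 to 11.93 for the other 14. This library also had the lowest total and the fewest genes detected (20444, others 21492 to 23169). Its share of mitochondrial counts was the lowest, at 6.635% against 8.678% to 11.33%. Totals ran from 13083190 to 21829906 counts per library.

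All 32 members had reads in every library, but most were scarce and a few were not. Per kilobase of gene length, the scale on which genes can be compared, the mean level over the 15 libraries was 352 CPM for Cyba, a subunit of the oxidase. The next were Lyz2, the myeloid lysozyme (19.7 CPM per kilobase), Csf1r (14.9), the galectin gene Lgals3 (13.6), the cysteine protease gene Ctss (4.13) and Cd14, the co-receptor for bacterial lipopolysaccharide (3.64). Adgre1, which encodes the macrophage marker F4/80, was at 0.779, Cx3cr1, the fractalkine receptor of kidney macrophages, at 0.637 and the pan-leukocyte phosphatase gene Ptprc at 0.361. The lowest were Cd163 (0.123), Ms4a7 (0.0969), Itgam (0.087), Trem2 (0.0748) and Cd84 (0.0489). Cd163 encodes the haemoglobin scavenger receptor, Itgam the integrin chain CD11b, Trem2 a lipid-sensing receptor and Ms4a7 a membrane protein of macrophages. Itgam, Ms4a7, Trem2 and Cd84 had 1 to 19 counts per library and did not pass the filter on low counts, which left 28 members tested. Itgam was at 0.146 to 0.503 CPM in WT, 0.27 to 1.11 in Hyp and 0.0773 to 0.553 in cFGF23-Hyp. Trem2 was at 0.261 to 0.372 CPM in WT, 0.324 to 0.429 in Hyp and 0.155 to 0.76 in cFGF23-Hyp. These ranges overlapped.

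**Figure D1:**
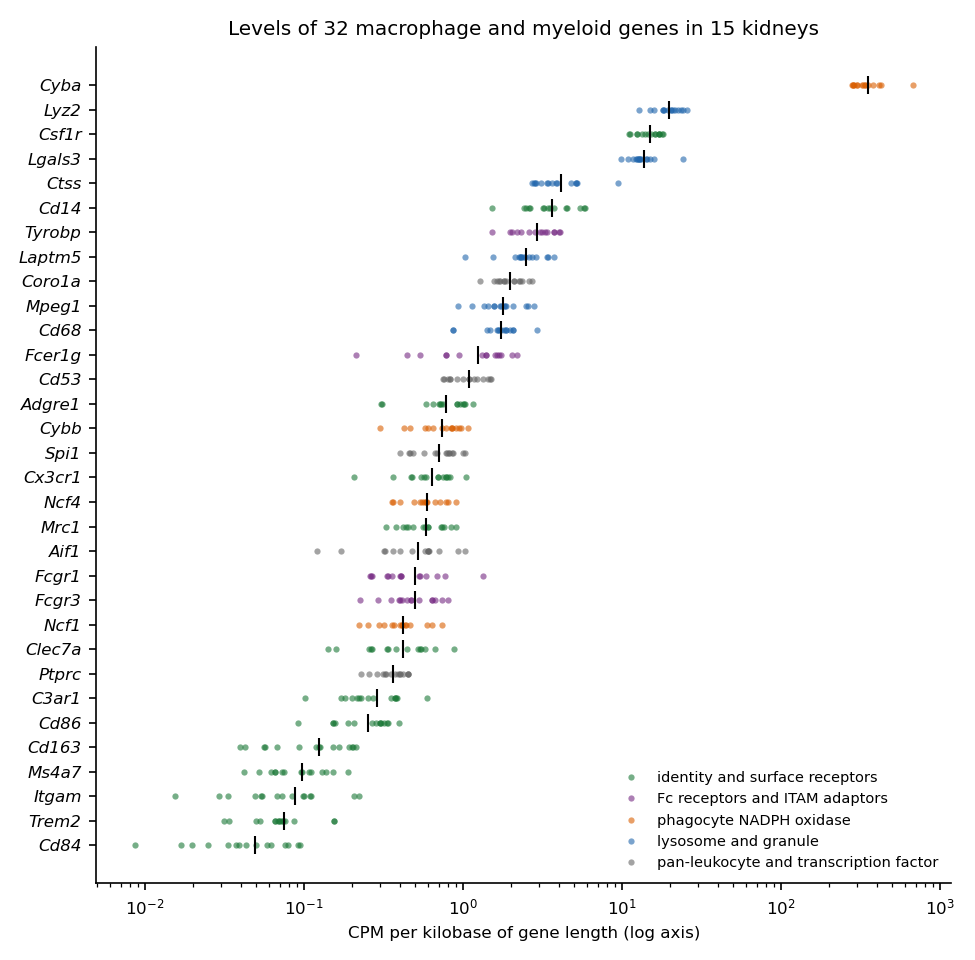
Level of each of the 32 members in CPM per kilobase of gene length on a log axis; each dot is 1 of 15 libraries, the black mark the mean, and colours give the role. Cyba stands far to the right with a mean of 352, and Cd84 is lowest at 0.0489.

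Cyba encodes p22phox, which also partners the catalytic subunit NOX4 of kidney tubules, so its transcript is not particular to phagocytes. Cybb, the phagocyte catalytic subunit that pairs with it, was at 0.73 CPM per kilobase. Nox4, chosen after its values were seen, was at 24 CPM per kilobase in WT (203 ± 16.1 CPM, SD, n = 5). Counts are uncertain where genes share sequence or overlap and strand is not stated. Cx3cr1 overlaps 6 other genes in the deposited coordinates, among them Gorasp1 at 34.7 to 46.1 CPM. Ncf1 shares 4303 bases with Gtf2ird2, at 7.65 to 11.6 CPM, and Csf1r shares 873 bases with Hmgxb3, at 9.01 to 40.7 CPM. Fcgr3 and Lyz2 have close paralogs (Fcgr2b and Fcgr4, and Lyz1).

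Many myeloid genes carry near their start the sequence bound by PU.1, the transcription factor that Spi1 encodes and that myeloid cells need. Its core, GAGGAA, was searched on both strands in the 250 bases before each RefSeq transcript start (GRCm38.p6). RefSeq windows were at hand for 25 members, in 30 windows that overlap in part where a gene has several. The core was in 14 of these 30 (46.7%), belonging to 12 members, and in 23.3% of all 32851 windows of the same length. No test was made of this difference, and other ETS factors share the core. The windows of 3 members that the results below turn on are shown because they differ in this core, which stands in capitals (TTCCTC where it lies on the other strand). The Mrc1 window holds 3 copies, starting 180, 167 and 35 bases before the start. The upstream one of 2 Ptprc windows holds 1, at 158 bases, and the Cyba window holds 0. These 3 members do not stand for the rest. The windows of Mpeg1 and Cx3cr1 and both windows of Coro1a also hold 0, and these members lay higher in Hyp.
Mrc1, chr2:14229164-14229413, plus strand: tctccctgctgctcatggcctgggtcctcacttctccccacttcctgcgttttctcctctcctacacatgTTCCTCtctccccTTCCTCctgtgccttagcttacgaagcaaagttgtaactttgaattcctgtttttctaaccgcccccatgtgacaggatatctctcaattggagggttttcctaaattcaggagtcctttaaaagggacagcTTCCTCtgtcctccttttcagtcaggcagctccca
Ptprc, chr1:138175306-138175555, minus strand: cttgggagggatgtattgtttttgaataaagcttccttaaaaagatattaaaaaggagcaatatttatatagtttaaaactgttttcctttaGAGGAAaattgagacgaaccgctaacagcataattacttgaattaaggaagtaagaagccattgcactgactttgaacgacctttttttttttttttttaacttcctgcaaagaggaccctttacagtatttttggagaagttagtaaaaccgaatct
Cyba, chr8:122432941-122433190, minus strand: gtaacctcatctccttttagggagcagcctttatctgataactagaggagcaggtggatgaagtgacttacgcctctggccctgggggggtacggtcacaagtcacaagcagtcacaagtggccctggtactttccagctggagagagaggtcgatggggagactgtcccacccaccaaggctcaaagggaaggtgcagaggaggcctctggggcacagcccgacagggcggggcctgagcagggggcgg
A match says only that these letters stand in the window.

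The comparison of Hyp with WT asks what loss of Phex does to the kidney. Most members lay higher in Hyp, by modest amounts, and 0 of the 28 tested passed edgeR's quasi-likelihood test with all 15 libraries at a Benjamini-Hochberg adjusted p below 0.05, where 0.342% of all genes tested passed, 0.177% higher and 0.165% lower. The log2 change was positive for 26 of 28 members with a median of 0.43, while 50.6% of all genes tested were positive and 49.4% negative, with a median of 0.00. The 2 members that were not positive were Cyba and Cd163, the latter at -0.00. The smallest adjusted p among members was 0.119, for Mrc1. At an unadjusted p below 0.05 stood 7 members (Mrc1, Ncf4, Mpeg1, Cx3cr1, Coro1a, Ptprc and Cd14), against 13.4% of all genes. Limma-voom also called 0 members (0.481% of all genes), and DESeq2 called 1, Mrc1 (2.22% of all genes). In whole tissue, the number of macrophages, the RNA per macrophage and the share of other cells cannot be told apart.

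Mrc1, the mannose receptor of tissue macrophages (ENSMUSG00000026712), was at 2.08, 2.42, 2.77, 3.64 and 2.65 CPM in WT_1 to WT_5. In Hyp_1 to Hyp_5 it was at 4.70, 3.84, 5.70, 3.82 and 4.84 CPM. Every Hyp library was above every WT library, though the gap between 3.64 and 3.82 was small. The log2 change was 0.74 ± 0.20 (estimate ± SE). The adjusted p of 0.119 in edgeR was 0.0269 in DESeq2 and 0.0418 in edgeR with the WT and Hyp libraries alone, a fit that called 3.33% of all genes.

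Coro1a, an actin regulator of leukocytes, was at 4.53, 4.34, 4.76, 4.66 and 5.15 CPM in WT and 6.54, 6.32, 5.83, 7.52 and 5.78 CPM in Hyp. All Hyp libraries were again above all WT libraries, with a log2 change of 0.45 ± 0.16 (adjusted p = 0.234, edgeR). Coro1a and Mrc1 were the 2 of 28 members whose groups did not overlap with Hyp higher, against 2.91% of all genes tested.

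The other surface receptor genes overlapped between the groups. Cx3cr1 had the largest positive log2 change, 0.78 ± 0.27 (adjusted p = 0.226), with means of 2.12 ± 0.929 CPM for WT and 3.59 ± 0.632 CPM for Hyp (SD, n = 5 each). In WT it ran from 0.923 CPM in WT_4 to 3.38 in WT_1, so WT_1 lay within the Hyp range of 3.14 to 4.67 CPM. Cd14 was at 4.17 to 6.12 CPM in WT (median 4.58) and 5.52 to 10.1 in Hyp (median 7.70). Adgre1 was at 2.08, 0.991, 2.30, 2.43 and 2.33 CPM in WT and 3.27, 2.97, 3.74, 1.88 and 3.09 in Hyp, with a log2 change of 0.55 ± 0.29 (adjusted p = 0.427). Hyp_4 was the exception there, below 4 of the WT libraries. Csf1r, the best measured receptor gene, was at 71.4 to 92.8 CPM in WT and 83.9 to 98.8 in Hyp, a log2 change of 0.23 ± 0.13 (adjusted p = 0.474). Clec7a, the beta-glucan receptor dectin-1, Cd86, a T cell co-stimulator, and C3ar1, the receptor of the complement fragment C3a, had log2 changes of 0.45, 0.19 and 0.13 with SEs of 0.40, 0.33 and 0.33. Cd163 had means of 0.667 ± 0.284 CPM for WT and 0.681 ± 0.421 CPM for Hyp (SD, n = 5 each).

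Among Fc receptor genes, the log2 change was 0.58 ± 0.30 for Fcgr3 (adjusted p = 0.418) and 0.00 ± 0.36 for Fcgr1, the high-affinity receptor for IgG (adjusted p = 0.997). The adaptors Fcer1g and Tyrobp carry activating signals of receptors inside the cell. Their log2 changes were 0.53 ± 0.46 (adjusted p = 0.646) and 0.33 ± 0.25 (adjusted p = 0.602) in edgeR. All 4 overlapped between the groups.

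The oxidase genes split. Ncf4, the cytosolic subunit p40phox, was at 0.719, 0.805, 0.993, 0.729 and 1.19 CPM in WT and 1.57, 1.14, 1.35, 1.82 and 1.63 in Hyp. Only WT_5 reached into the Hyp range. Its log2 change was 0.74 ± 0.21 (adjusted p = 0.135). The log2 change of Cybb was 0.51 ± 0.25 (adjusted p = 0.402), and that of Ncf1, the cytosolic organizer p47phox, was 0.25 ± 0.26 (adjusted p = 0.710). Cyba went the other way, at 392, 430, 366, 442 and 351 CPM in WT and 295, 335, 294, 298 and 310 in Hyp.

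Every Hyp library had less Cyba than every WT library, as was so for 2.84% of all genes tested, and Cyba was the only member of the 28 with that order. Its log2 change was -0.37 ± 0.19 (adjusted p = 0.402 with all 15 libraries). The SE comes from a spread shared by all 3 groups, and cFGF23-Hyp_3 alone stood at 695 CPM. Without cFGF23-Hyp_3 the log2 change of Cyba was -0.37 ± 0.07 (adjusted p = 0.0255, where 2.16% of all genes were called), and with the WT and Hyp libraries alone it had a log2 change of -0.36 ± 0.07 (adjusted p = 0.0214). Proximal tubule markers were lower in the same libraries: the summed level of 16 such genes was 41200 to 49600 CPM in Hyp and 50300 to 66700 in WT, with 3 of 16 log2 changes positive and 0 called. Kap alone, an androgen-regulated tubule gene, was at 15200 to 22100 CPM in Hyp and 21400 to 33400 in WT, and the sum of the other 15 was 24100 to 27900 in Hyp and 28900 to 34200 in WT. Lrp2, the endocytic receptor megalin, was at 2010 to 2400 CPM in Hyp and 1970 to 2320 in WT, and its partner Cubn at 305 to 368 and 264 to 335. Slc34a1, a phosphate transporter gene that both sums hold, was at 3280 to 3830 CPM in Hyp and 4510 to 4970 in WT. Its log2 change was -0.39 ± 0.08 (adjusted p = 0.0591, edgeR), the smallest adjusted p of this list. Regulation of such genes and the share of tubule cells cannot be told apart in these sums. The part of tubule cells in the Cyba result was not tested. Nox4 had a log2 change of 0.05 ± 0.14 (adjusted p = 0.905).

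All 6 lysosome and granule genes had positive log2 changes, from 0.09 for Lyz2 to 0.65 for Mpeg1, and 0 were called. Mpeg1, the pore-forming perforin-2 of phagocytes, was at 5.89, 4.03, 6.74, 4.95 and 7.80 CPM in WT and 7.97, 7.51, 8.03, 12.1 and 10.8 in Hyp. WT_5 alone passed the lowest Hyp library, Hyp_2, and the log2 change was 0.65 ± 0.20 (adjusted p = 0.168). For Laptm5, a lysosomal membrane gene of blood cells, the macrophage lysosome marker Cd68, Lgals3 and Ctss the log2 changes were 0.42, 0.37, 0.19 and 0.14 (adjusted p = 0.460, 0.561, 0.664 and 0.851). Lyz2 lay at 19.6 to 26.6 CPM in WT and 20.9 to 33.6 in Hyp.

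The 5 pan-leukocyte and transcription factor genes had log2 changes of 0.41 to 0.72, all positive. Ptprc was at 5.75, 4.15, 6.01, 4.66 and 7.31 CPM in WT and 7.36, 7.08, 8.22, 7.64 and 6.83 in Hyp, where again only WT_5 overlapped. Its log2 change was 0.41 ± 0.16 (adjusted p = 0.281). Spi1 and Cd53, a leukocyte tetraspanin gene, each stood at 0.43 on that scale (adjusted p = 0.448 for Spi1, 0.422 for Cd53). Aif1, the actin-bundling marker IBA1, had 0.72 ± 0.43 (adjusted p = 0.491) at 3 to 27 counts per library.

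**Figure D2:**
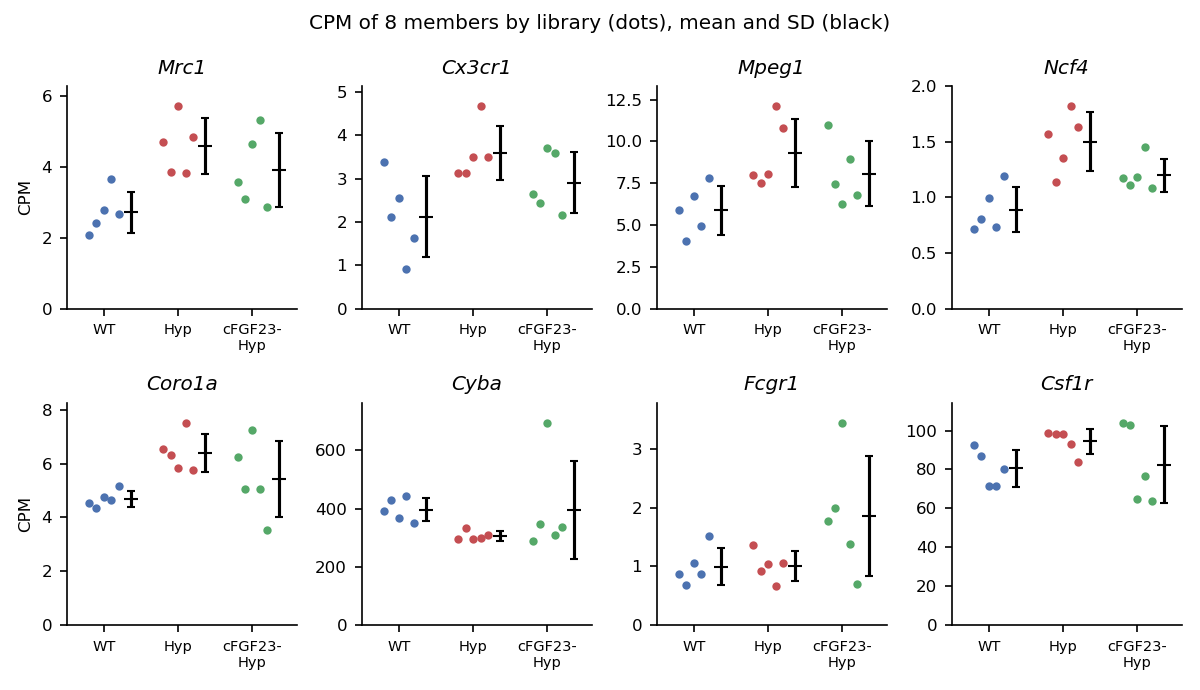
CPM of 8 members in each library (dots, 5 per group) with the group mean and SD in black; each vertical axis starts at 0. Hyp libraries lie above WT for Mrc1 and Coro1a and below WT for Cyba, and cFGF23-Hyp_3 stands out at 695 CPM of Cyba.

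How far these results rest on the doubted libraries was measured by leaving them out. Without WT_5 and cFGF23-Hyp_5, 0 members were called in Hyp against WT, against 1.43% of all genes (0.704% higher, 0.73% lower), and the median log2 change was 0.51. In those libraries, a count added after the data were seen, 5 members had Hyp above WT throughout (Mrc1, Ncf4, Mpeg1, Ptprc and Coro1a), against 5.78% of all genes, and Cyba lay below throughout, against 7.09%. Without cFGF23-Hyp_3 as well, 7 of 28 members were called, where 9.43% of all genes were (4.2% higher, 5.22% lower). In that fit Mpeg1, Coro1a, Cybb, Ncf4, Ptprc and Mrc1 rose by 0.78, 0.48, 0.79, 0.87, 0.53 and 0.73 on the log2 scale (adjusted p = 0.0237, 0.0268, 0.0268, 0.0286, 0.0339 and 0.045), and Cyba fell by 0.41 on the log2 scale (adjusted p = 0.00598). The authors' deposited table lists 5 members at an adjusted p below 0.05 for Hyp against WT, among 1318 of 27916 genes: Cyba (log2 change -0.374, adjusted p = 0.000119), Mrc1 (0.736, 0.00749), Mpeg1 (0.651, 0.0181), Cd14 (0.588, 0.0243) and Coro1a (0.441, 0.0287).

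The comparison of cFGF23-Hyp with Hyp asks what the vector changes in Hyp kidneys. No member passed edgeR's test, and neither did any of the genes tested (0 of 15789, 0.0%). Among members 1 had an unadjusted p below 0.05, against 10.4% of all genes. DESeq2 and limma-voom called 0 members and 0.766% and 0.0127% of all genes. Log2 changes were positive for 10 and negative for 18 of the 28 tested, against 51.6% and 48.4% of all genes, with a median of -0.19 against 0.01 for all genes. Without cFGF23-Hyp_5 the median was -0.06, with 10 of 28 positive. Without WT_5 and cFGF23-Hyp_3 as well it was -0.02, with 11 positive. The shift of the median thus leaned on cFGF23-Hyp_5. The groups overlapped for every tested member, while they did not for 0.874% of all genes with cFGF23-Hyp higher and 0.963% with it lower. The comparison shares the Hyp libraries with the one above, so their values are not independent.

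The 5 pan-leukocyte and transcription factor genes were all lower, with log2 changes of -0.12 to -0.48, and Spi1 had the largest, -0.48 ± 0.24 (adjusted p = 0.496). Of the 9 receptor genes tested 7 were lower, among them Mrc1 at 3.56, 3.10, 4.63, 5.32 and 2.86 CPM in cFGF23-Hyp_1 to cFGF23-Hyp_5 (log2 change -0.24 ± 0.20, adjusted p = 0.658). These values spread over both the WT and the Hyp range. Mpeg1 was at 11, 7.43, 6.23, 8.92 and 6.80 CPM, a log2 change of -0.19 ± 0.20 (adjusted p = 0.720). Ncf4 was at 1.08 to 1.45 CPM, a range that overlaps those of both other groups (log2 change -0.32 ± 0.21, adjusted p = 0.568).

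Other members lay higher after the vector. Fcgr1 was at 1.78, 1.99, 3.45, 1.38 and 0.695 CPM in cFGF23-Hyp_1 to cFGF23-Hyp_5, against 1.36, 0.919, 1.04, 0.667 and 1.05 in Hyp_1 to Hyp_5. In 4 of 5 treated libraries it exceeded every Hyp library, and in cFGF23-Hyp_5 it did not. For cFGF23-Hyp_4 the gap was nearly none, 1.38 against 1.36 CPM in Hyp_1, with 20 counts in each. Its log2 change was 0.88 ± 0.34, the largest of the members (adjusted p = 0.399). It was 0.56 ± 0.31 without cFGF23-Hyp_3, and without WT_5 and cFGF23-Hyp_5 it was 1.08 ± 0.28 (adjusted p = 0.222). In those remaining libraries Fcgr1 was the 1 member with cFGF23-Hyp above Hyp throughout, against 1.55% of all genes. That order rests on the same gap between cFGF23-Hyp_4 and Hyp_1. Members called were 0 without these 2 libraries, against 0.421% of all genes (0.377% higher, 0.044% lower), and 0 without cFGF23-Hyp_3 as well, against 0.389% (0.358% higher, 0.0309% lower). For C3ar1, Ctss and Ncf1 the log2 changes were 0.60, 0.46 and 0.40 (adjusted p = 0.517, 0.543 and 0.564). Ctss rested on 1 library, at 12.7 CPM in cFGF23-Hyp_3 and 4.17 to 7.05 in the others, and its log2 change without that library was 0.15 ± 0.22. Cyba, with a log2 change of 0.37 ± 0.19 (adjusted p = 0.493), had 0.07 ± 0.08 without cFGF23-Hyp_3.

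**Figure D3:**
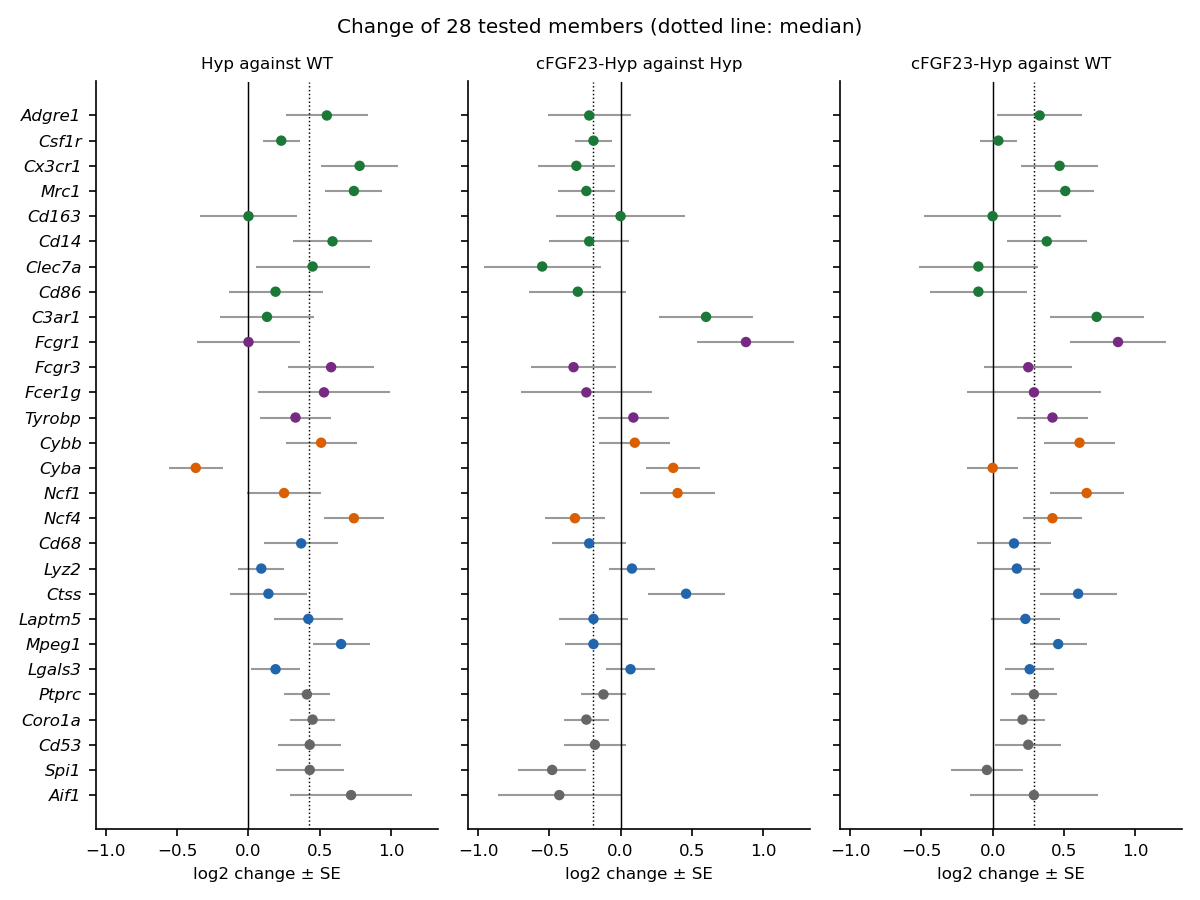
Log2 change ± SE of the 28 tested members in the 3 comparisons, grouped and coloured by role as in the plot of levels; the dotted line is the median over members. With all 15 libraries the medians are 0.43, -0.19 and 0.29, and the first comparison shares Hyp with the second and WT with the third.

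Against WT, treated Hyp kidneys had positive log2 changes in 24 of 28 members, with a median of 0.29 (0.02 and 54.5% positive for all genes), and 0 were called by edgeR, DESeq2 or limma-voom. Over all genes edgeR called 0.0% of 15789. Here 7 members had an unadjusted p below 0.05, against 5.73% of all genes. DESeq2 called 0.038% of all genes and limma-voom 0.0%. The largest log2 changes were 0.88 ± 0.34 for Fcgr1, 0.73 ± 0.33 for C3ar1, 0.66 ± 0.26 for Ncf1, 0.61 ± 0.25 for Cybb and 0.60 ± 0.27 for Ctss (adjusted p = 0.822, 0.851, 0.839, 0.839 and 0.856). The mean of the treated group lay between those of WT and Hyp for 17 of 28 members, and it was the highest of the 3 for 8 and the lowest for 3. The share of all genes with each order was not counted, and the treated mean includes cFGF23-Hyp_5. No return toward WT is therefore read from these counts. Csf1r was at 80.6 ± 9.47, 94.5 ± 6.3 and 82.5 ± 20 CPM in WT, Hyp and cFGF23-Hyp (SD, n = 5 each).

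Calls of Cybb and Cyba in this comparison turned on the doubted libraries. Cybb was at 3.74, 1.73, 2.67, 2.48 and 5.47 CPM in WT_1 to WT_5 and at 4.91, 5.26, 6.23, 4.84 and 3.32 in the treated libraries. WT_5 was the highest WT library and cFGF23-Hyp_5 the lowest treated one. Without both, Cybb rose, with a log2 change of 1.00 ± 0.21 (adjusted p = 0.0361), where 1.11% of all genes were called (0.843% higher, 0.27% lower). With only WT_5 and cFGF23-Hyp_5 left out, 7 members lay above WT throughout (Fcgr1, Cybb, Ncf1, Ncf4, Lyz2, Ctss and Coro1a), against 2.84% of all genes. All 28 log2 changes were then positive, with a median of 0.44 against 0.02 for all genes. With cFGF23-Hyp_3 left out too, Cybb (log2 change 0.92 ± 0.22, adjusted p = 0.0363) and Cyba (-0.37 ± 0.08, adjusted p = 0.0298) were called, where 3.6% of all genes were, 1.8% in each direction.

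Single mice also stood out across many members. In cFGF23-Hyp_5, 20 of 28 members had their lowest value of the treated group, against 21.7% of all genes tested, and 0 had their highest. In cFGF23-Hyp_3, 14 had their highest value, against 34.9% of all genes. WT_5 held the highest WT value for 12 members and WT_2 the lowest for 13, against 22.4% and 17.6% of all genes. With only WT_2 left out, the median log2 change of members in Hyp against WT was 0.33, against 0.43 with all libraries. Their smallest adjusted p in edgeR was then 0.285, against 0.119. Averaged over members, the deviation of log2 CPM from the 15-library average of each gene was -0.55 in WT_2, 0.01 in WT_5, -0.23 to -0.09 in the other WT libraries, -0.06 to 0.34 in Hyp, 0.09 to 0.39 in cFGF23-Hyp_1 to cFGF23-Hyp_4, and -0.43 in cFGF23-Hyp_5. WT_5 was the highest WT library, and cFGF23-Hyp_5 lay within the WT range.

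**Figure D4:**
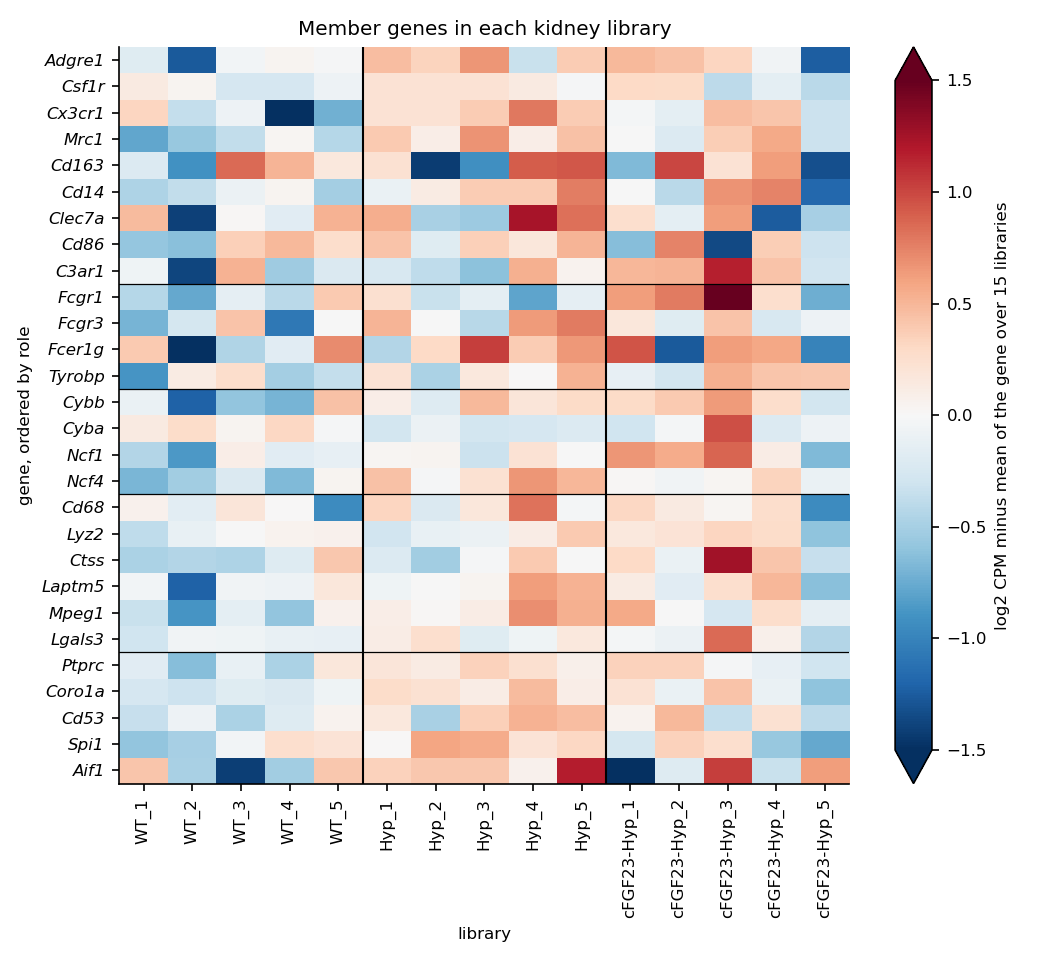
Log2 CPM of the 28 tested members (rows, ordered by role) in 15 libraries (columns), minus the mean of the gene over all libraries; red is above that mean and blue below. WT_2 and cFGF23-Hyp_5 have the lowest averages over members (-0.55 and -0.43), and cFGF23-Hyp_3 holds the highest value in the rows of Fcgr1, Ctss and Cyba.

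Among 50 further phagocyte genes, 45 were tested and 39 had positive log2 changes in Hyp against WT (median 0.35), with 1 called, Cyth4, an activator of ARF small GTPases in blood cells. Cyth4 rose from 3.95 ± 0.498 CPM in WT to 6.97 ± 0.646 in Hyp (SD, n = 5 each; log2 change 0.82 ± 0.14, adjusted p = 0.0223), and was at 4.59 ± 0.687 in cFGF23-Hyp. In cFGF23-Hyp against Hyp, 12 of the 45 were positive (median -0.07), 0 were called, and Cyth4 had a log2 change of -0.60 ± 0.14 (adjusted p = 0.204). Against WT, 36 of the 45 were positive and 0 were called. The ligands of the macrophage receptors were also measured. Of 8 tested growth factor and chemokine genes 7 were positive in Hyp against WT and 0 called, the chemokine gene Cxcl16 having 0.60 ± 0.16 (adjusted p = 0.117). Il34, a second ligand of the Csf1r product, was at 15.8 to 27.1 CPM in WT, 26.8 to 39.2 in Hyp and 13.4 to 38.5 in cFGF23-Hyp. Cx3cl1, the ligand of the Cx3cr1 product, was at 53.4 ± 4.95, 62.7 ± 3.14 and 47.9 ± 7.98 CPM in that order (SD, n = 5 each), with a log2 change of -0.39 ± 0.10 in cFGF23-Hyp against Hyp (adjusted p = 0.232).

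Neutrophil, T cell and most mast cell markers were scarce. The summed level of 10 neutrophil genes was 1.67 to 5.93 CPM in WT, 2.85 to 4.96 in Hyp and 2.44 to 3.93 in cFGF23-Hyp, and Ly6g had 0 counts in 1 library of each group. The sum of 20 T and NK cell genes was 5.7 to 9.32, 7.3 to 9.77 and 7.7 to 8.96 CPM in that order, and 3 of the 20 were tested with 0 called. Cpa3, which defines mast cells, was at 0 in 2 WT and 2 treated libraries and at most at 0.59 CPM. The mast cell list, 17.2 to 24.8, 25.0 to 29.6 and 16.4 to 27.6 CPM in sum, had 2 genes tested and 0 called. That sum came mostly from the 2 tested genes, Kit (12.1 to 20.8 CPM over the groups) and Hdc (1.77 to 10.3). It is therefore not read as a level of mast cells. The dendritic cell sum, 112 to 153, 130 to 159 and 122 to 161 CPM, came mostly from Cd24a, which tubules also express, and Xcr1 was at most at 0.674 CPM. Of 7 dendritic cell genes tested, Cd24a among them, 5 were positive in Hyp against WT and 0 called, with a median log2 change of 0.11. Zbtb46, a transcription factor of conventional dendritic cells, was at 5.63 to 9.15 CPM in WT and 9.24 to 10.7 in Hyp. Its groups did not overlap, as was so with Hyp higher for 2.91% of all genes tested. The log2 change was 0.59 ± 0.15 (adjusted p = 0.102, edgeR). Zbtb46 stood far above Xcr1 and above Flt3, which was at most at 0.614 CPM. Which cells its transcript came from was not tested. Clec9a, a receptor for dead cells on dendritic cells, was at 1.73 to 2.87 CPM in WT and 2.59 to 3.56 in Hyp (log2 change 0.46 ± 0.19, adjusted p = 0.308). Clec10a and Itgae went the other way. Clec10a was at 0.372 to 1.21 CPM in WT and 0.35 to 0.736 in Hyp, and Itgae at 1.05 to 1.95 and 0.789 to 1.28. The sum of 15 B and plasma cell genes moved with Hyp, at 76.8 to 184 CPM in WT, 225 to 543 in Hyp and 72.4 to 293 in cFGF23-Hyp. In Hyp against WT 7 of its 8 tested genes were positive and 1 was called, Jchain (log2 change 1.87 ± 0.38, adjusted p = 0.0478), and in cFGF23-Hyp against Hyp 0 of the 8 were positive. The part of dendritic, B and plasma cells in the members' values was not tested. Red cell genes were abundant, led by haemoglobin (Hba-a1 at 39.7 to 189 CPM in WT and 99.4 to 226 in Hyp). Their sum was 129 to 439, 251 to 508 and 195 to 391 CPM in WT, Hyp and cFGF23-Hyp, and 0 of 6 tested were called in every comparison.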

How the data were processed

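Raw counts of reads per gene were deposited by the authors in 2 tables, one for WT and Hyp and one for Hyp and cFGF23-Hyp. Per the labels' protocols, libraries were prepared with an NEBNext Ultra RNA kit. No aligner, counter, annotation or strand setting is given in the sources used here. Build mm10 is named in the submitters' processing notes, yet only 2.09% of 25727 genes start where GRCm38 has them and 0 members do, so positions from the tables were not joined with RefSeq windows. Each table also holds the authors' deposited p-value, its adjusted form and log2 fold change, printed only where named, and 40 further columns of per-sample normalized values were not used. Gene lengths are those the authors list.

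Hyp counts were identical in both tables for all 27122 shared genes, which were joined. Entries without a gene name (299, 0.219% to 0.363% of counts) were left out. Counts were tested with edgeR 4.0.16 under R 4.3.3 (TMM, filterByExpr, quasi-likelihood F test, 1 mean per group, 15 libraries in 1 fit, 15789 genes), with Benjamini-Hochberg adjustment over all genes and calls below 0.05. SE was taken as log2 change over the root of F. CPM uses TMM-scaled library sizes, and depth limits the genes of few counts. Reads carry no molecular identifiers, so no interval for a single library is given. Libraries of a group differed by a chi-square of at least 8.98 per degree of freedom, so none was a copy. The fit was tested on simulated data with 200 changed genes.

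DESeq2 1.42.0, limma-voom (limma 3.58.1), other filters and scalings, 2-group fits, the replicate number as a block, WT_5 placed in Hyp, and libraries left out were the alternatives. For an uncalled gene a turn of sign by less than 1 standard error was counted as no change. Members and gene lists were chosen with earlier results of these data known. All members are named. Of the other lists, counts are given, with some of the 2 genes of smallest adjusted p per comparison and every called gene of the phagocyte and growth factor lists. A list of the whole oxidase complex is not reported here. Ces1g, Nox4, Kap, Lrp2, Cubn, Clec10a, Itgae and single defining markers were chosen after their values were seen, as were the counts of groups that do not overlap without WT_5 and cFGF23-Hyp_5. A planned search for the ITAM pattern in adaptor proteins was not run, for lack of a protein table. Lists matched 50 of 50 phagocyte, 15 of 18 growth factor, 10 of 14 neutrophil and 7 of 8 mast cell genes, and all genes of the others.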

Additional observations from a re-analysis of the deposited data

Results flagged for a closer look

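In 8 of 84 sets of a tested member and a group of 5 libraries, 1 library lay far from the rest (gap to its neighbour over the range of the group above 0.71). Chance gives about 1 in 20, or 4.2 of 84. Cyba was at 695 CPM in cFGF23-Hyp_3 and 289 to 348 in the other treated libraries. Lyz2 was at 16.8 CPM in cFGF23-Hyp_5 and 28.4 to 31.8 in the others, and Ncf4 at 1.45 CPM in cFGF23-Hyp_4 and 1.08 to 1.18 in the others. In WT, Ctss was at 6.99 CPM in WT_5 and 3.81 to 4.61 in the others. WT_2 was low for Adgre1 (0.991 CPM, others 2.08 to 2.43) and for Laptm5 (3.90 CPM, others 8.55 to 10.2). In Hyp, Cx3cr1 was at 4.67 CPM in Hyp_4 and 3.14 to 3.50 in the others, and Aif1 at 1.58 CPM in Hyp_5 and 0.728 to 0.92 in the others.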

How the results depend on the processing

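Members called in Hyp against WT were 0 with all libraries, 1 with DESeq2, 2 with only the WT and Hyp libraries, 7 without WT_5, cFGF23-Hyp_5 and cFGF23-Hyp_3, and 0 to 1 with 1 library left out. The 1 was Cyba without cFGF23-Hyp_3. In cFGF23-Hyp against Hyp they were 0 in every alternative run. In cFGF23-Hyp against WT they were 1 (Cybb) without WT_5 and cFGF23-Hyp_5, 2 (Cybb and Cyba) without cFGF23-Hyp_3 as well, and 0 with any 1 library left out. Over all genes, calls in Hyp against WT were 54 with all libraries, 351 with DESeq2, 516 with only the 2 groups, 97 with WT_5 placed in Hyp, 228 and 1527 without the 2 and the 3 doubted libraries, and 7 to 345 with 1 library left out. In cFGF23-Hyp against Hyp they were 0, 121 with DESeq2, 2 with limma-voom, 67 and 63 without the 2 and the 3 libraries, and 0 to 25 with 1 left out. In cFGF23-Hyp against WT they were 0, 6 with DESeq2, 1 with WT_5 placed in Hyp, 177 and 583 without the 2 and the 3 libraries, and 0 to 3 with 1 left out. The causes were not tested. With the replicate number as a block, 15 genes and 0 members were called in Hyp against WT, and 0 genes in the other comparisons. The labels do not say that numbers pair mice, and deviations from the group means correlated above 0.1 in 4 of 15 pairs of equal number. Of 2086 values of members under the alternatives, 14 gained a call, 0 lost one and 1 turned sign by more than its SE. That was Lgals3 in cFGF23-Hyp against Hyp, at -0.16 ± 0.11 without cFGF23-Hyp_3 and 0.07 ± 0.17 with it (-0.16 to 0.19 over the libraries left out in turn). In 58 others an uncalled value turned sign by less. Members with few counts, such as Aif1 and Fcer1g with as few as 3 in a library, cannot show modest changes at this depth.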
